A study of Mus musculus with 177 samples.

Results

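The lungs of newborn C57BL/6 mice were compared between animals that had breathed low oxygen and animals that had breathed air. All mice were 7 days old. For 120 min they breathed gas with an inspired oxygen fraction of 0.08 or 0.21, then received 21, 40, 60 or 100% oxygen for 30 min, and were observed in air for 150 min before the tissue was taken. The hypoxia groups H21 (9 arrays), H40 (9), H60 (12) and H100 (11) carry the oxygen percentage of the second step in their names, and the controls N21 (9) and N100 (10) had no hypoxia. The labels name no transgene or drug in any group. The comparison was the mean of the 4 hypoxia groups minus the mean of the 2 control groups, over 41 hypoxia and 19 normoxia arrays. These 60 arrays were chosen by tissue and group in the sample titles from 177 arrays of lung, brain and eye. The titles number the arrays of a group, and the design text describes randomized mice, but nothing ties an array to a named litter or cage.

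Before the results, some arrays need a remark. The array labelled lung H40 replicate 10 was left out, since its profile correlated with that of brain (r = 0.986 across genes) better than with that of lung (r = 0.817). Its mean log2 value over 19 genes of alveolar type 2 cells, the cells that make surfactant, was 6.37. In the lungs that were used it ran from 10.59 to 10.89 in normoxia and from 10.39 to 10.89 after hypoxia, so the lung label fitted these arrays. Each lung was also scored by the share of the called genes (below) whose value lay nearer the hypoxia mean than the normoxia mean. This share had a median of 19.8% in normoxia and 79.3% after hypoxia, and 4 arrays lay on the side opposite to their label: N21 replicate 2 (84.3%), H100 replicate 6 (16.4%), H60 replicate 1 (16.1%) and H40 replicate 2 (33.4%). The calls were made with these arrays included, and the shares are a description only. They were kept, because leaving out arrays for their outcome would choose the result. Left out singly, they gave 583, 560, 484 and 515 called genes in that order, against 440 with all of the 60 arrays. Such a rise was not limited to these arrays. Without H21 replicate 1, which lay on the side of its label (66.4%), 578 genes were called. That array had the lowest quality weight (0.085) and was kept as well. With the array of brain profile kept in, 138 genes were called, and with arrays weighted by their quality 1113.

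**Figure D1:**
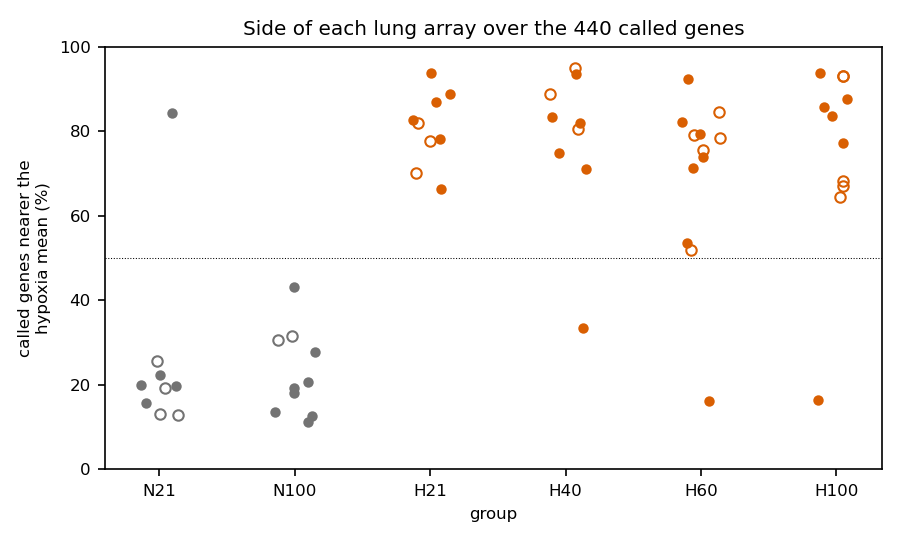
Each point is 1 lung array, and the vertical axis is the percentage of the 440 called genes whose column-adjusted value lay nearer the hypoxia mean than the normoxia mean; grey marks normoxia, orange hypoxia, filled symbols the first part of the sample columns and open symbols the later part. Of 19 normoxia arrays 1 lay above 50%, and of 41 hypoxia arrays 3 lay below it.

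The order of the sample columns also divided the lungs, with 38 arrays in a first part and 22 in the later part. The labels do not state a batch, but 11256 of 19937 genes differed between these parts, so the part entered the model as a block. Each part held arrays of all groups (25 hypoxia and 13 normoxia arrays in the first, 16 and 6 in the later).

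At this age the mouse lung is dividing its air sacs into alveoli. Mesenchymal cells next to the epithelium send growth signals of the FGF, Wnt and BMP families, myofibroblasts raise the new walls, and capillaries follow. Low oxygen stabilizes hypoxia-inducible factors (HIF), which bind a short DNA element and switch on genes of oxygen supply, while glucocorticoids from the adrenal gland induce genes of sodium and water transport that keep the airspaces dry. In whole lung, fewer cells of a type and less RNA per cell cannot be told apart.

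Of 19937 genes, limma called 440 at a Benjamini-Hochberg adjusted p under 0.05 (2.21% of the genes tested). Of these, 272 were higher (1.36%) and 168 lower (0.843%) after hypoxia. Most changes were small: 235 called genes changed by less than 0.25 on the log2 scale, 176 by 0.25 to 0.5 and 29 by more, with medians of 0.24 among the higher and -0.24 among the lower. Over all genes the median change was 0.0074. All 440, which were called on both parts of the columns together, had the same sign when the parts were fitted separately, and 22 of them were called in the first part alone and 37 in the later part alone. In all that follows a change is hypoxia minus normoxia on the log2 scale, and ± is the standard error of the fit. Counts given beside a change, such as 38 of 41 arrays, refer to values adjusted for the column part. Ranges, medians and counts of arrays above or below the other group are of the deposited values, without this adjustment. They can therefore also follow the column part. The gene lists were written with earlier results of these data known. Shares of a list set beside those of all genes are therefore a description and test nothing.

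**Figure D2:**
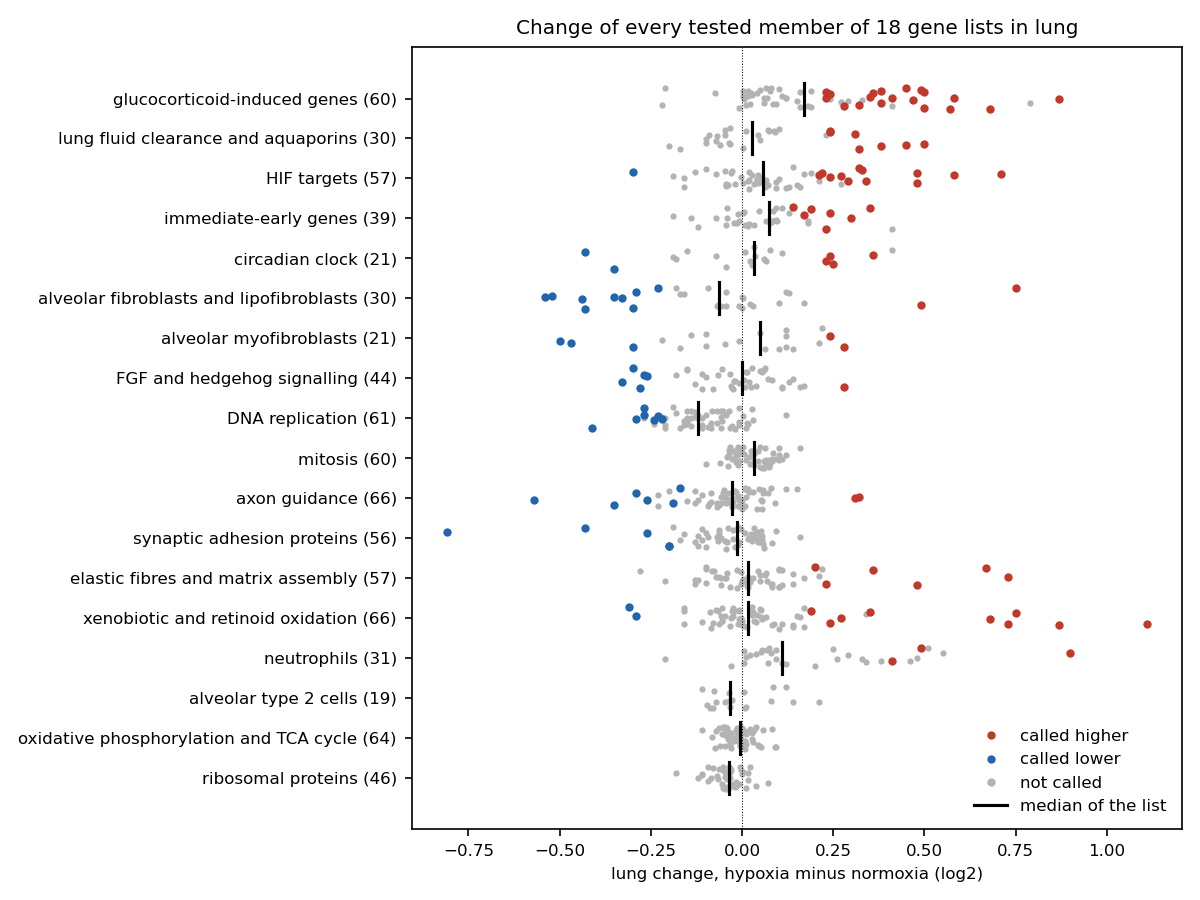
Each point is the lung change (hypoxia minus normoxia, log2) of 1 tested member of the gene list named at the left, with the number of members in parentheses; red and blue mark members called higher and lower, grey those not called, and the bar is the median of the list. The glucocorticoid-induced genes have a median of 0.17 and the DNA replication genes one of -0.12, while no mitosis, type 2 cell, oxidative phosphorylation or ribosomal protein gene was called.

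Genes of the alveolar fibroblasts and lipofibroblasts, the mesenchymal cells that nurse the alveolar epithelium, were called mostly lower after hypoxia. Of 30 members tested, 9 fell (30%, against 0.843% of all genes) and 2 rose, with a list median of -0.06. The other 19 were not called, among them Tcf21 (0.10), Plin2 (0.12) and Npnt (-0.045). Over the whole list 11 estimates were positive and 19 negative. At an unadjusted p under 0.05 by limma, 12 were lower and 4 higher. The mean log2 value of the list ran from 9.55 to 9.83 in the normoxia arrays (median 9.71) and from 9.27 to 9.79 in the hypoxia arrays (median 9.62). Wnt2, a ligand made by distal lung mesenchyme, ran from 7.24 to 9.42 in normoxia with a median of 8.61, and from 7.09 to 9.36 after hypoxia with a median of 8.12. The ranges overlapped almost throughout: 2 normoxia arrays lay above every hypoxia array, and 1 hypoxia array lay below every normoxia array. The change was -0.52 ± 0.12 (adjusted p = 0.0066, lower in 38 of 41 arrays), or -0.40 in the first part of the columns and -0.72 in the later part.

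Fgf10, the growth factor that keeps epithelial progenitors and lipofibroblasts going, lay between 6.84 and 7.99 in normoxia (median 7.61) and between 6.04 and 7.89 after hypoxia (median 7.21). Here 3 normoxia arrays were higher than all hypoxia arrays. It fell by 0.33 ± 0.076 (adjusted p = 0.0071, 37 of 41 arrays). Ldb2, an adaptor that joins LIM proteins on DNA, separated the groups better, from 9.73 to 10.30 in normoxia (median 10.02) and from 9.17 to 10.02 after hypoxia (median 9.53). Of the hypoxia arrays, 34 lay below the lowest normoxia array. Its change of -0.44 ± 0.053 had the smallest adjusted p among the genes that fell (8.5e-08, 40 of 41 arrays). Bmp5, a bone morphogenetic protein, fell by 0.43 ± 0.089, the fatty acid transporter Slc27a6 by 0.54 ± 0.10, and Wif1, a secreted Wnt inhibitor, by 0.35 ± 0.054 (adjusted p 0.0019, 0.0004 and 2.2e-05). The amino acid transporter Slc7a10 (-0.30), the alcohol dehydrogenase Adh1 (-0.29) and the sodium channel Scn3a (-0.23) were the remaining members that fell. Both members that rose act in metabolism: Inmt, an indolethylamine methyltransferase, by 0.75 ± 0.16 and G0s2, an inhibitor of fat breakdown, by 0.49 ± 0.087.

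Of 21 myofibroblast genes, 3 fell and 2 rose. The metalloprotease Adam12 ran from 7.31 to 8.33 in normoxia (median 7.94) and from 6.47 to 8.43 after hypoxia (median 7.46), with 7 hypoxia arrays below and 1 above the whole normoxia range. It fell by 0.50 ± 0.084 (adjusted p = 7.2e-05, 38 of 41 arrays). Hhip, a membrane protein that captures hedgehog ligands, lay between 9.59 and 10.51 in normoxia (median 10.03) and between 8.73 and 10.55 after hypoxia (median 9.74). Of the hypoxia arrays 13 lay below and 1 above the normoxia range, and the change was -0.30 ± 0.072 (adjusted p = 0.0097). The hormone Stc1 fell by 0.47 ± 0.075 (adjusted p = 3.8e-05). Fgf18 rose by 0.28 ± 0.068 and the secreted protein Crispld2 by 0.24 ± 0.061 (adjusted p 0.012 and 0.014).

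The mesenchymal signals can also be read by pathway. Among 44 genes of FGF and hedgehog signalling 5 fell (11.4%) and 1 rose: beside Fgf10 and Hhip, the hedgehog effector Gli3 fell by 0.28 ± 0.072, and the Ets factors Etv1 and Etv4, which FGF receptors induce, fell by 0.27 ± 0.060 and 0.26 ± 0.060. Of 62 Wnt genes 3 fell (4.84%, against 0.843% of all genes) and 1 rose (1.61%, against 1.36%). Rspo2, a secreted enhancer of Wnt signalling, ran from 6.53 to 8.10 in normoxia (median 7.68) and from 6.28 to 7.88 after hypoxia (median 7.18). The groups overlapped except for 3 normoxia arrays above and 1 hypoxia array below the other group, and Rspo2 fell by 0.44 ± 0.10 (adjusted p = 0.0044, 36 of 41 arrays). Nkd2, an inhibitor inside the cell, rose by 0.26 ± 0.053. In the BMP and TGF-beta list of 63 genes, 4 rose and 1 fell. The inhibitors Fstl3, which binds activin, and Smad6 rose by 0.44 ± 0.073 and 0.25 ± 0.071, the BMP-induced Id1 by 0.30 ± 0.074, and the receptor Tgfbr2 by 0.16 ± 0.037. Bmp5 was the member that fell.

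The other mesenchymal and vessel wall lists moved less. In smooth muscle (25 genes) Fhl5 and the actin-binding Tagln (0.21 ± 0.045) rose and Hhip fell. Pericytes had 1 called gene of 19, the proteoglycan Cspg4 (0.19 ± 0.050), and adventitial fibroblasts 1 of 22, Ogn (0.37 ± 0.10). Upk1b (0.52 ± 0.13) and Igfbp6 (0.26 ± 0.067) rose among 16 mesothelial genes.

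**Figure D3:**
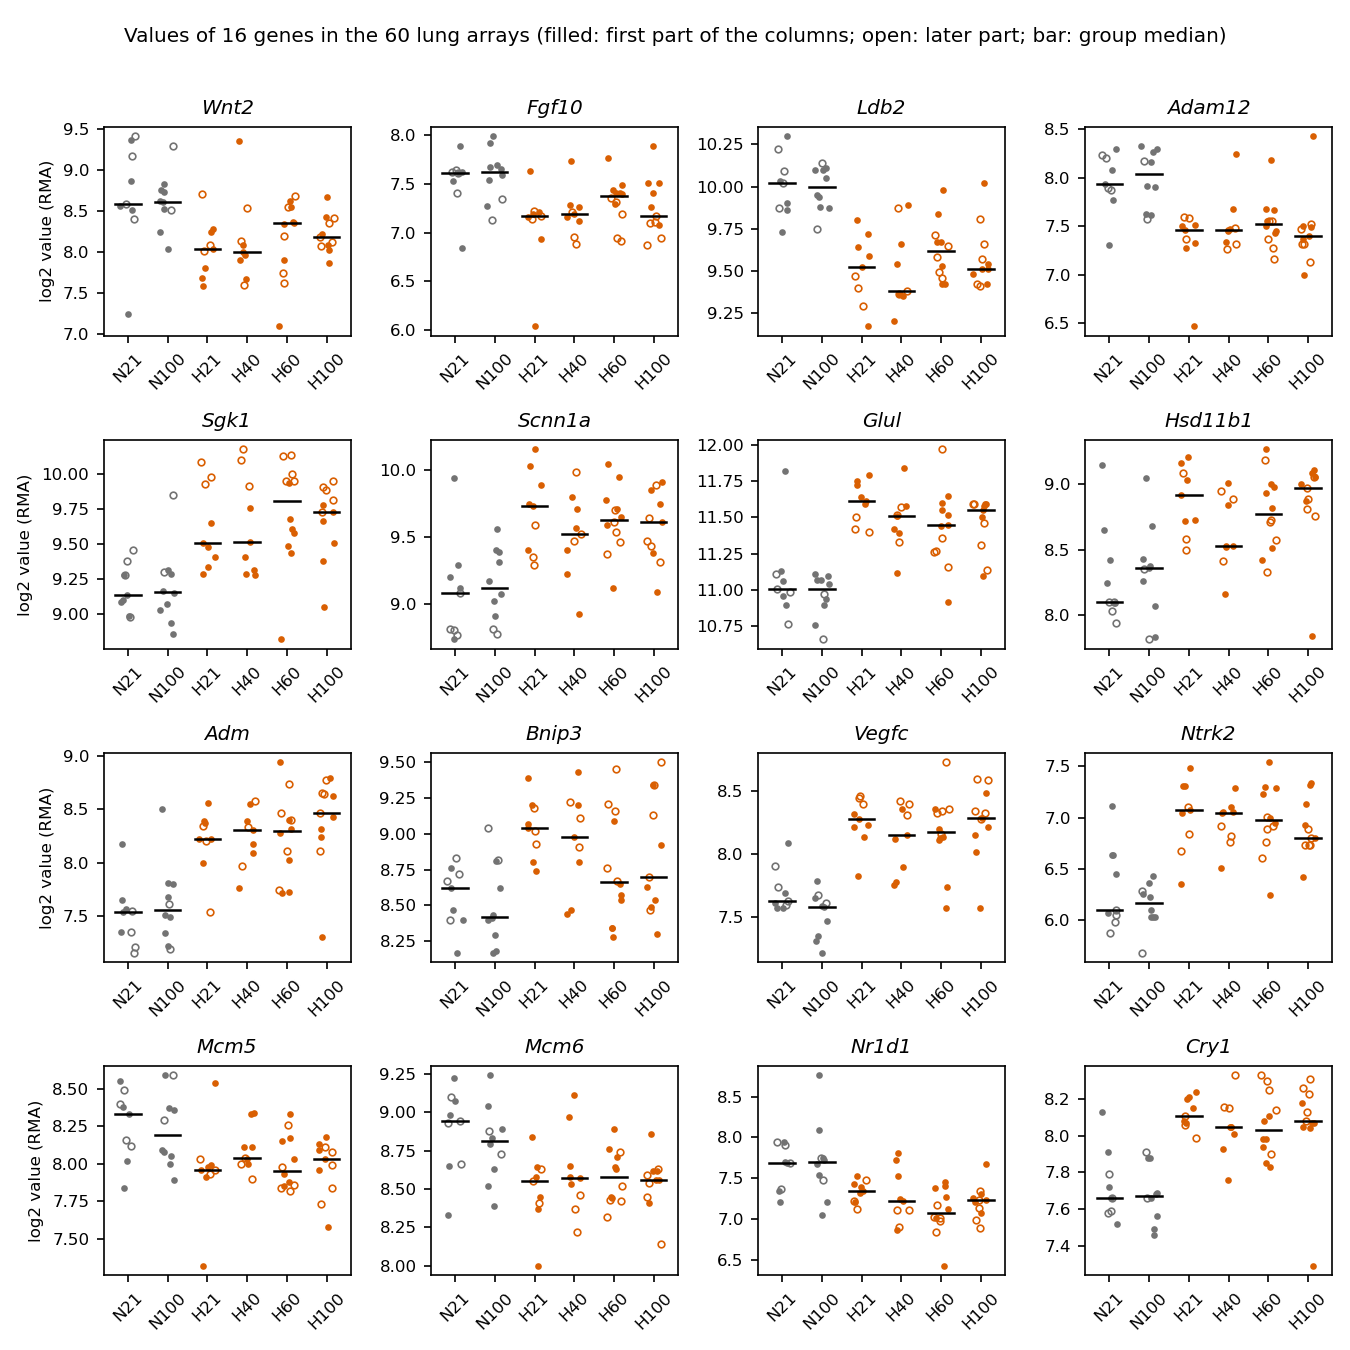
Deposited log2 values (vertical axes, RMA) of 16 genes in all 60 lung arrays by group; grey marks the normoxia groups N21 and N100, orange the hypoxia groups, filled symbols the first part of the sample columns, open symbols the later part, and bars the group medians. In N21 replicate 2 the values of Scnn1a (9.94) and Glul (11.82) lie above the other N21 arrays, and Ldb2 lies below the lowest normoxia array in 34 hypoxia arrays.

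Genes that glucocorticoids are known to induce were called in 1 direction. Of 60 tested, 19 rose (31.7%, against 1.36% of all genes) and none fell by limma. At an unadjusted p under 0.05, 35 were higher and 1 was lower, where 6.35% and 4.12% of all genes were. The list median was 0.17 in lung, 0.04 in brain and 0.07 in eye. Sgk1, a kinase that keeps sodium channels at the cell surface, ran from 8.86 to 9.85 in normoxia (median 9.15) and from 8.82 to 10.18 after hypoxia (median 9.68). Above the highest normoxia array lay 15 hypoxia arrays, and 1 lay below the lowest. These values are not adjusted, and the highest normoxia array (N100 replicate 9) and most of the 15 belong to the later part of the columns. The change was 0.45 ± 0.058 (adjusted p = 4e-07, 40 of 41 arrays).

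Glul, glutamine synthetase, had values of 10.66 to 11.82 in normoxia (median 11.01) and of 10.92 to 11.97 after hypoxia (median 11.52). The highest normoxia value came from N21 replicate 2, 5 normoxia arrays lay below all hypoxia arrays, and 2 hypoxia arrays lay above all normoxia arrays. Its change was 0.47 ± 0.058 (adjusted p = 1.2e-07). Hsd11b1, the enzyme that regenerates active glucocorticoid inside cells, lay between 7.81 and 9.15 in normoxia (median 8.26) and between 7.84 and 9.27 after hypoxia (median 8.87). Its groups overlapped over most of their ranges, with 4 hypoxia arrays above the normoxia values, and it rose by 0.49 ± 0.088 (adjusted p = 0.00023). The 3 largest called increases of the list after Fmo2 (0.87 ± 0.12), a flavin monooxygenase, were Sult1a1 (0.68 ± 0.092), a sulfotransferase, Hif3a (0.58 ± 0.14) and Slc10a6 (0.57 ± 0.13), a carrier of sulfated steroids. Ehd3, a protein of endosomes, rose by 0.50 ± 0.10. Tsc22d3, which encodes the anti-inflammatory leucine zipper GILZ, rose by 0.41 ± 0.11, and the phosphatase Dusp1 by 0.35 ± 0.081 (adjusted p 0.018 and 0.0072). Fkbp5, a chaperone of the glucocorticoid receptor, changed by 0.45 ± 0.13 and was not called (adjusted p = 0.054). Nor was the zinc finger factor Zbtb16, at 0.79 ± 0.30 (adjusted p = 0.2, higher in 21 of 41 arrays). Several of its called members are counted again in other lists. The list shares Hif3a with the HIF targets, and Sgk1, Scnn1a, Scnn1b and Aqp1 with the fluid clearance genes. It shares Dusp1 and Gadd45b with the immediate-early genes and Cry2 with the clock genes. Fmo2 and Sult1a1 return under xenobiotic oxidation, Glul under amino acid handling and Sgk1 under insulin signalling. The results of these lists are thus not independent.

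Binding sites of the glucocorticoid receptor are often distant from the start of a gene. The half-sites spaced by 3 bases were searched as ACANNNTGT on both strands in the 250 bases before each RefSeq start (build GRCm38.p6). The motif stood in 4.93% of 19115 such windows, which covered 15562 of the 19937 genes, and in 5.79% of those genes. Of the 19 called members, 17 had a window, and 5 of these had the motif: Fam107a, Glul, Map3k6, Sgk1 and Slc10a6. Over all called genes the share of genes with it was 9.26% among those that rose and 9.23% among those that fell. Below are the windows of Glul (chr1:153899679-153899928, + strand) and Slc10a6 (chr5:103629404-103629653, - strand), with the motif in capitals. They show how close to the start the match lies.
Glul: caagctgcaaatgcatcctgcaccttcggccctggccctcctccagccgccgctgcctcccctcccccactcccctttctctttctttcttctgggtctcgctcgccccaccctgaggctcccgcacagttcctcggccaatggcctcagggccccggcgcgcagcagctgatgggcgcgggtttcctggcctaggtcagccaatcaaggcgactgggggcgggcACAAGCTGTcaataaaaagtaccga
Slc10a6: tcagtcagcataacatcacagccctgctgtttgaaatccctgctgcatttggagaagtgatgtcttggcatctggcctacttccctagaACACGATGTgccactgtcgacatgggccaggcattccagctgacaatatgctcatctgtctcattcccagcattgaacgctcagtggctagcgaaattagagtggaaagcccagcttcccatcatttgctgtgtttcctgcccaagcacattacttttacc
The match began at base -25 in Glul and at base -161 in Slc10a6, counted from the start. It is a match of letters and not a measured site.

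Genes that carry sodium and water out of the airspaces were also called upward. Of 30 genes of lung fluid clearance and aquaporins, 7 rose (23.3%) and 0 fell by limma. At an unadjusted p under 0.05, 9 were higher and 1 was lower. Scnn1a encodes the alpha subunit of the epithelial sodium channel, the entry step for sodium. Its values were 8.73 to 9.94 in normoxia (median 9.08) and 8.92 to 10.16 after hypoxia (median 9.61). There were 7 normoxia arrays below all hypoxia arrays and 5 hypoxia arrays above all normoxia arrays. It rose by 0.50 ± 0.077 (adjusted p = 1.9e-05, 38 of 41 arrays). The beta subunit Scnn1b rose by 0.32 ± 0.064, the sodium pump subunit Atp1b1 by 0.31 ± 0.062, the pump regulator Fxyd5 by 0.24 ± 0.055, and the scaffold Slc9a3r2 by 0.24 ± 0.060. Aqp1, the water channel of lung capillaries, rose by 0.38 ± 0.060 (adjusted p = 2.5e-05). The changes of Scnn1a, Scnn1b, Atp1b1 and Sgk1 differed from those in brain and in eye (limma, adjusted p under 0.05 for both differences).

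Of 57 genes known as HIF targets, 12 rose (21.1%) and 1 fell, with a list median of 0.06. Adm encodes the vasodilator peptide adrenomedullin. It ran from 7.16 to 8.50 in normoxia (median 7.54) and from 7.31 to 8.94 after hypoxia (median 8.32), and 10 hypoxia arrays lay above all normoxia arrays. It rose by 0.71 ± 0.10 (adjusted p = 1.2e-06, 40 of 41 arrays). Bnip3, a mitochondrial protein that marks mitochondria for removal, lay between 8.17 and 9.04 in normoxia (median 8.47) and between 8.28 and 9.50 after hypoxia (median 8.92). Above the normoxia range were 17 hypoxia arrays, and the change was 0.34 ± 0.079 (adjusted p = 0.0064, 34 of 41 arrays). P4ha2, a subunit of the prolyl hydroxylase that matures collagen, ran from 6.64 to 7.44 in normoxia (median 6.92) and from 6.61 to 7.83 after hypoxia (median 7.30). Here 10 hypoxia arrays exceeded all normoxia arrays, and it rose by 0.33 ± 0.069 (adjusted p = 0.002).

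Hif3a, a HIF subunit that restrains the others, lay between 5.44 and 7.43 in normoxia (median 5.85) and between 5.55 and 7.86 after hypoxia (median 6.45). Only 1 hypoxia array exceeded the highest normoxia array, N21 replicate 2, and the other N21 arrays reached 6.09. Its change was 0.58 ± 0.14 (adjusted p = 0.0098). The other HIF targets that rose were Selenbp1, a methanethiol oxidase (0.48 ± 0.080), Lox, the enzyme that cross-links collagen and elastin (0.48 ± 0.083), Edn1, the phosphofructokinase Pfkl (0.29 ± 0.054), the collagen lysyl hydroxylase Plod1 (0.27 ± 0.063), the glucose transporter Slc2a3 (0.24 ± 0.064), Higd1a (0.22 ± 0.064) and Ndrg1 (0.21 ± 0.056). The chemokine receptor Cxcr4 fell by 0.30 ± 0.073. In the machinery of the pathway, 21 genes, Hif3a rose and Arnt2, a partner subunit of the nervous system, fell by 0.17 ± 0.037. Glycolysis and glycogen genes had 3 of 42 called, Pfkl, Slc2a3 and the pyruvate kinase Pkm (0.21 ± 0.051), all higher.

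The core of the hypoxia response element was searched as ACGTG and as GCGTG on both strands in the same windows of 250 bases. ACGTG stood in 18.4% and GCGTG in 35.9% of the 19115 windows, and in 20.9% and 39.4% of the genes. Of the 12 HIF targets that rose, 9 had a window. ACGTG stood in 3 of them (Bnip3, P4ha2 and Selenbp1) and GCGTG in 8 of them (Adm, Bnip3, Hif3a, Higd1a, P4ha2, Pfkl, Plod1 and Selenbp1). Over all 272 genes that rose, 280 windows of 216 genes were found, and the shares were 17.1% and 36.8% of windows and 22.2% and 44.9% of genes. The windows of the 3 genes described by array are shown with both forms in capitals: Adm (chr7:110627407-110627656, + strand), Bnip3 (chr7:138909507-138909756, - strand) and P4ha2 (chr11:54100674-54100923, + strand).
Adm: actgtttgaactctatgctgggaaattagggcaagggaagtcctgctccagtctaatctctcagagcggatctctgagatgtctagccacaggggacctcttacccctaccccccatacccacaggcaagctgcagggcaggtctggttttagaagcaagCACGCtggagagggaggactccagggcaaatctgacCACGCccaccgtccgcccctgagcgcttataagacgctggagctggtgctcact
Bnip3: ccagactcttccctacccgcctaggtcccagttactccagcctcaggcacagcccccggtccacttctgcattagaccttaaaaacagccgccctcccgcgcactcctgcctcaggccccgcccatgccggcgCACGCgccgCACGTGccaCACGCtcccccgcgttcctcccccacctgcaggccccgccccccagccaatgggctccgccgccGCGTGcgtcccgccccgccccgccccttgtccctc
P4ha2: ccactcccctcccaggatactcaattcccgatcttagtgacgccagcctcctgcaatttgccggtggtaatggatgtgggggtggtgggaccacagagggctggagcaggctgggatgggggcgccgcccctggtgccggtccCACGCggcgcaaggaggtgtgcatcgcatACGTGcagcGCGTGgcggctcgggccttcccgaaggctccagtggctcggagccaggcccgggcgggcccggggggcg
In Adm both matches are GCGTG read on the opposite strand (CACGC), at -90 and -54. In Bnip3 the run CACGTG at -108 holds ACGTG on both strands, and in P4ha2 ACGTG at -78 is followed by GCGTG at -69. These lists were known targets to begin with, so the matches describe the genes and test nothing.

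Calls among DNA replication genes were all lower after hypoxia, and no mitosis gene was called. Of 61 replication genes 7 fell (11.5%) and 0 rose by limma, the median was -0.12, and 54 of 61 estimates were negative. At an unadjusted p under 0.05, 30 were lower and 0 were higher. Of 60 mitosis genes limma called 0, with 1 higher and 0 lower at an unadjusted p under 0.05 and a median of 0.03. The largest mitosis estimates were 0.16 for Hmmr and 0.12 for Pttg1. Mcm5 encodes a subunit of the replicative helicase. It ran from 7.84 to 8.59 in normoxia (median 8.29) and from 7.32 to 8.54 after hypoxia (median 8.0), with 5 hypoxia arrays below and 3 normoxia arrays above the other group. The change was -0.23 ± 0.061 (adjusted p = 0.022, 36 of 41 arrays).

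Mcm6, a further helicase subunit, lay between 8.33 and 9.24 in normoxia (median 8.88) and between 8.0 and 9.11 after hypoxia (median 8.56). The groups overlapped except for 4 hypoxia and 2 normoxia arrays, and Mcm6 fell by 0.27 ± 0.062 (adjusted p = 0.0062, 38 of 41 arrays). Mcm4 and Mcm7 fell by 0.24 ± 0.069 and 0.22 ± 0.049. The last subunits of the hexamer, Mcm2 and Mcm3, changed by -0.22 ± 0.072 and -0.27 ± 0.079 and were not called (adjusted p 0.092 and 0.057). Hells, a chromatin remodeller of dividing cells, ran from 6.90 to 8.63 in normoxia (median 7.46) and from 6.12 to 7.80 after hypoxia (median 7.15). It had 9 hypoxia arrays below and 3 normoxia arrays above the other group, and fell by 0.41 ± 0.10 (adjusted p = 0.015). The chromatin assembly subunit Chaf1b (-0.29 ± 0.061) and the polymerase Pole (-0.27 ± 0.069) also fell. Ccnd1, the cyclin of the G1 phase, fell by 0.42 ± 0.072 (adjusted p = 0.00013, 38 of 41 arrays). With array weights 19 replication genes were called lower, while the lower calls over all genes also went up, from 168 to 375.

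E2F factors switch on replication genes through a site written TTTCGCGC or TTTGGCGC. Searched on both strands, these letters stood in 0.361% and 0.581% of the 19115 windows, and in 0.424% and 0.688% of the genes. Of the 7 replication genes that fell, 5 had a window, and Mcm5 and Mcm6 had both forms. Their windows follow with the matches in capitals: Mcm5 (chr8:75109259-75109508, + strand) and Mcm6 (chr1:128359706-128359955, - strand).
Mcm5: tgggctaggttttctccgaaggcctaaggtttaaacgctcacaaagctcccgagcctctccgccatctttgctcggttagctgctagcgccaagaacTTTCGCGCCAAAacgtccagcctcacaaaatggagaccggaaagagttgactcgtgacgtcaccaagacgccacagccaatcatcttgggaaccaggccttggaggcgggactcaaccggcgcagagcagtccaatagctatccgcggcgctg
Mcm6: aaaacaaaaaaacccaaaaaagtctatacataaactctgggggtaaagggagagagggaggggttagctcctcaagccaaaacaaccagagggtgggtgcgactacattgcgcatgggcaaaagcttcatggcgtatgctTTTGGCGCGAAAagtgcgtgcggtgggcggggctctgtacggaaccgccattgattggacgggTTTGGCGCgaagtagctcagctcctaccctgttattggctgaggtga
In Mcm5 the forms overlap on opposite strands from -153, in Mcm6 they overlap from -110, and Mcm6 has a further TTTGGCGC at -47.

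Circadian clock genes were called in both directions. Of 21 clock genes 4 rose and 2 fell. Those that fell are the paired repressors of Arntl: Nr1d1 ran from 7.05 to 8.76 in normoxia (median 7.69) and from 6.43 to 7.81 after hypoxia (median 7.22). Below the normoxia range lay 10 hypoxia arrays, and above the hypoxia range 5 normoxia arrays. It fell by 0.43 ± 0.081 (adjusted p = 0.00052, 39 of 41 arrays). Nr1d2 lay between 8.30 and 9.18 in normoxia (median 8.78) and between 7.83 and 9.12 after hypoxia (median 8.42), with 17 hypoxia arrays below all normoxia arrays, and fell by 0.35 ± 0.051 (adjusted p = 6e-06). Cry1, a repressor of the other arm of the clock, had 7.46 to 8.13 in normoxia (median 7.66) and 7.29 to 8.33 after hypoxia (median 8.08). Of its hypoxia arrays 16 lay above all normoxia arrays and 1 below, and it rose by 0.36 ± 0.050 (adjusted p = 2.4e-06). Cry2 rose by 0.23 ± 0.035, Per2 by 0.24 ± 0.060, and Arntl, the activator BMAL1, by 0.25 ± 0.043. Per1 changed by 0.41 ± 0.14 and was not called (adjusted p = 0.11). Hours of collection were not given in the labels used here, and their part in the result was not tested.

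The clock's E-box, searched as CACGTG, stood in 7% of the windows and in 8.12% of the genes. Every CACGTG also holds the ACGTG counted above. Of the 6 called clock genes 5 had a window, and 1, Cry1 (chr10:85185055-85185304, - strand), had the E-box, at -60.
Cry1: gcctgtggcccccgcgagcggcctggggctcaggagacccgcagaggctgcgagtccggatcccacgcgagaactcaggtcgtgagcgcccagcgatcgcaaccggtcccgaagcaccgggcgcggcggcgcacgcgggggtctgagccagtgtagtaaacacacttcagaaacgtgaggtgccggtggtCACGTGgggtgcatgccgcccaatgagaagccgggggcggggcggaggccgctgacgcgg
Nr1d1, Nr1d2, Cry2 and Arntl had no CACGTG in these 250 bases, which says nothing about sites elsewhere.

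Growth factors of vessels moved in both directions. Of 52 angiogenic factors and receptors, 4 rose and 2 fell. Vegfc, the ligand of the lymphatic and endothelial receptor VEGFR3, ran from 7.22 to 8.09 in normoxia (median 7.61) and from 7.57 to 8.73 after hypoxia (median 8.28). Above every normoxia array lay 33 of the 41 hypoxia arrays. The change was 0.58 ± 0.058 (adjusted p = 6.6e-10, higher in 41 of 41 arrays). Flt4, which encodes VEGFR3, fell by 0.20 ± 0.051 (adjusted p = 0.019). Ntrk2, a receptor tyrosine kinase for neurotrophins, lay between 5.68 and 7.11 in normoxia (median 6.10) and between 6.24 and 7.54 after hypoxia (median 6.95). There were 11 hypoxia arrays above all normoxia arrays and 11 normoxia arrays below all hypoxia arrays, and the change was 0.75 ± 0.077 (adjusted p = 6.6e-10). Pgf, placental growth factor, rose by 0.42 ± 0.080 and the Notch target Heyl by 0.18 ± 0.048. The peptide ligand Apln fell by 0.16 ± 0.041.

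Of 56 genes of vasoactive peptides and nitric oxide, 3 rose and 3 fell. Edn1, the precursor of the vasoconstrictor endothelin, ran from 7.74 to 8.84 in normoxia (median 8.41) and from 8.09 to 9.28 after hypoxia (median 8.79). Its hypoxia arrays lay above the normoxia range in 17 cases, and it rose by 0.32 ± 0.069 (adjusted p = 0.0025). The serotonin receptor Htr2a rose by 0.37 ± 0.066. Pde5a, the phosphodiesterase that ends the cyclic GMP signal of nitric oxide, had 10.68 to 11.93 in normoxia (median 11.43) and 10.12 to 11.72 after hypoxia (median 11.03). Below all normoxia arrays were 6 hypoxia arrays, and it fell by 0.32 ± 0.079 (adjusted p = 0.014). Ddah1, which clears an inhibitor of nitric oxide synthase, fell by 0.16 ± 0.047.

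The pan-endothelial genes had a median change of -0.0037. Of 28 limma called 0, with 4 higher and 3 lower at an unadjusted p under 0.05, and the largest estimates were 0.26 for Adgrl4 and 0.22 for Tek. Among genes of junctions and adhesion, 43 in all, Jam2 (0.42 ± 0.061) and the sialomucin Podxl (0.29 ± 0.048) rose. Vcam1, which holds leukocytes to the vessel wall, ran from 8.65 to 10.37 in normoxia (median 9.35) and from 7.81 to 9.80 after hypoxia (median 8.96), with 16 hypoxia arrays below the normoxia range. It fell by 0.46 ± 0.10 (adjusted p = 0.003). By vessel type, arterial endothelium had 3 genes higher (Stmn2, Jag2 and Fbln2) and 1 lower (Cxcr4) of 16, venous endothelium 1 higher (Prss23) and 2 lower (Vcam1 and Car8) of 13, general capillary 1 of 20 (Sema3c, higher), aerocyte capillary 1 of 14 (Apln, lower) and lymphatic 1 of 13 (Flt4, lower).

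Proteins that assemble elastic fibres and matrix were called in 1 direction. Of 57 genes 6 rose (10.5%) and 0 fell by limma. At an unadjusted p under 0.05, 10 were higher and 3 lower. Tinagl1, a matrix protein of basement membranes, ran from 8.72 to 10.20 in normoxia (median 9.32) and from 9.03 to 11.06 after hypoxia (median 10.14). It exceeded all normoxia arrays in 17 hypoxia arrays and rose by 0.67 ± 0.10 (adjusted p = 3.8e-06). Lox lay between 8.59 and 10.11 in normoxia (median 9.27) and between 9.08 and 10.26 after hypoxia (median 9.77). Its groups overlapped, with 5 normoxia arrays below and 3 hypoxia arrays above the other group (adjusted p = 0.00011). Adamtsl2, which binds fibrillin, rose by 0.73 ± 0.12, Spon1 by 0.36 ± 0.057, Fbln2 by 0.23 ± 0.064 and Sparcl1 by 0.20 ± 0.057. The collagen chains themselves gave 0 calls by limma among 44 genes, with 3 higher and 1 lower at an unadjusted p under 0.05, and integrins gave 0 among 31, with 3 higher and 2 lower.

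Proteases and their inhibitors changed in both directions. Among 61 metalloproteases and inhibitors, Mmp8 (0.90 ± 0.15), the tissue inhibitor Timp3 (0.32 ± 0.061), Adam15 (0.30 ± 0.072) and Adamts14 (0.20 ± 0.050) rose. Adam12, the aggrecan-cleaving Adamts5 (-0.28 ± 0.058) and Cpxm1 (-0.19 ± 0.052) fell. In the list of serine protease inhibitors and coagulation (55 genes) 5 rose and 1 fell. Serpina3n, an acute-phase inhibitor, ran from 5.41 to 7.84 in normoxia (median 6.38) and from 5.67 to 8.22 after hypoxia (median 6.99). Only 4 hypoxia arrays exceeded the normoxia range, and the change was 0.65 ± 0.15 (adjusted p = 0.0079). Wfdc1 rose by 0.64 ± 0.10, the factor XIII subunit F13a1 by 0.36 ± 0.10, the thrombin receptor F2r by 0.23 ± 0.047 and the complement inhibitor Serping1 by 0.14 ± 0.037. Serpinb8 fell by 0.35 ± 0.090.

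Immune cell markers were called in few lists. Of 31 neutrophil genes, 29 had positive estimates with a median of 0.11, and 3 rose: Mmp8, G0s2 and Olfm4 (0.41 ± 0.089). At an unadjusted p under 0.05, 13 neutrophil genes were higher and 1 was lower. Their mean log2 value ran from 6.00 to 6.86 in normoxia (median 6.25) and from 6.14 to 7.12 after hypoxia (median 6.42). Of 25 interstitial macrophage genes 3 rose. Cd163, the scavenger receptor for haemoglobin, lay between 5.0 and 6.63 in normoxia (median 5.84) and between 5.41 and 7.40 after hypoxia (median 6.26). Its groups overlapped, with 7 hypoxia arrays above the normoxia range, and it rose by 0.48 ± 0.10 (adjusted p = 0.003). Ms4a4a rose by 0.80 ± 0.20 and F13a1 as above. Limma called 0 of 20 alveolar macrophage genes (0 higher and 0 lower at an unadjusted p under 0.05), 0 of 23 monocyte genes (4 and 4), 0 of 25 T cell genes (0 and 0), 0 of 21 B cell genes (0 and 1) and 0 of 19 mast cell genes (1 and 2). The largest monocyte estimates were -0.45 for Adgre4 and 0.36 for Ccr2. How far a change in the number of neutrophils bears on Mmp8, G0s2 and Olfm4 was not tested.

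Epithelial cell lists gave few calls. Type 2 cells gave 0 calls by limma among 19 genes (2 higher and 0 lower at an unadjusted p under 0.05), with 0.21 for Sftpd and 0.14 for Il33 as the largest estimates. Club cells gave 0 of 18 (3 and 0), ciliated cells 0 of 19 (0 and 0), and basal and neuroendocrine cells 0 of 12 (1 and 0). In type 1 cells the keratin Krt7 (0.22 ± 0.060) was the called gene of 20, and 16 of the 20 estimates were positive. Ctsh, a protease that processes surfactant protein, rose by 0.36 ± 0.061 and was the called gene among 35 of surfactant lipid metabolism.

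Genes of tissues next to the lung varied widely between arrays. The mean of 30 heart and skeletal muscle genes ran from 6.59 to 8.54 in normoxia and from 6.45 to 9.30 after hypoxia, that of 26 fat genes from 6.31 to 7.62 and from 6.27 to 8.19, and that of 25 T cell genes from 5.70 to 6.24 and from 5.66 to 7.42. Limma called 0 genes of the muscle, fat, cartilage (14) and thymus (13) lists. At an unadjusted p under 0.05 they had 0, 1, 0 and 0 higher and 0, 0, 1 and 2 lower. The largest estimates were -0.82 for Ucp1 and -0.50 for Adipoq in fat, and 0.55 for Ankrd1 and -0.40 for Nppa in muscle.

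Some genes better known from the nervous system also fell. Of 66 axon guidance genes 6 fell (9.09%) and 2 rose. The netrin receptor Unc5c fell by 0.57 ± 0.10, the Slit receptor Robo2 by 0.35 ± 0.072, the plexins Plxnd1 and Plxna4 by 0.29 ± 0.059 and 0.26 ± 0.060, Efna5 by 0.19 ± 0.048 and Sema6d by 0.17 ± 0.047. The secreted guidance cues Sema3c (0.32 ± 0.084) and Ntn4 (0.31 ± 0.066) rose. For Sema3c the change was 0.11 in the first part of the columns and 0.65 in the later part. Of 56 synaptic adhesion proteins 5 fell (8.93%) and 0 rose by limma, with 10 lower and 1 higher at an unadjusted p under 0.05. Slitrk6 fell most (-0.81 ± 0.14). Ptprd, a receptor phosphatase that binds Slitrk proteins at synapses, ran from 9.21 to 10.50 in normoxia (median 10.22) and from 8.97 to 10.68 after hypoxia (median 9.73). The groups overlapped with 3 hypoxia arrays below and 2 above the normoxia range, and it fell by 0.43 ± 0.083 (adjusted p = 0.00098, 37 of 41 arrays). N-cadherin, Cdh2 (-0.26 ± 0.071), Cdh8 (-0.20 ± 0.049) and Ptprs (-0.20 ± 0.045) fell too. Among all 38 protein tyrosine phosphatases 4 fell, adding Ptprk (-0.28 ± 0.068) and Ptpn5 (-0.20 ± 0.054), and 0 rose by limma, with 7 lower and 1 higher at an unadjusted p under 0.05. Of 19 neuron and Schwann cell markers, Stmn2 rose (0.30 ± 0.069) and 0 fell by limma, with 0 lower and 1 higher at an unadjusted p under 0.05. Their mean log2 value ran from 5.62 to 5.96 in normoxia and from 5.54 to 6.08 after hypoxia.

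Of 112 ion channel genes 5 fell (4.46%, against 0.843% of all genes) and 2 rose (1.79%, against 1.36%). Those that fell were the glycine receptor subunit Glrb (-0.44 ± 0.10), the touch channel Piezo2 (-0.30 ± 0.087), the sodium channel parts Scn3b (-0.30 ± 0.067) and Scn3a, and the potassium channel Kcnq1 (-0.17 ± 0.049). Those that rose were the epithelial sodium channel subunits. In the LIM list of 57 genes, Fhl5, Lims2 (0.36 ± 0.053), an adaptor of integrin contacts, and Crip2 (0.14 ± 0.038) rose while Ldb2 and Lmo3 (-0.32 ± 0.075) fell.

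Most genes of the following metabolic lists were not called, and those called were mostly higher. Of 66 genes of xenobiotic and retinoid oxidation 9 rose (13.6%) and 2 fell. After Dpep1 (1.11 ± 0.13), a dipeptidase that cleaves leukotriene D4, and Fmo2 came Inmt, Xdh (0.73 ± 0.10), which makes uric acid, Sult1a1 and Akr1c14 (0.35 ± 0.081). Adh1 and the retinoic acid binding protein Crabp1 (-0.31 ± 0.085) fell. The 87 cytochromes P450 gave 0 calls by limma, with 5 higher and 1 lower at an unadjusted p under 0.05. Of 21 aldehyde dehydrogenases 3 rose: Aldh6a1 (0.27 ± 0.054), Aldh1l1 (0.22 ± 0.049) and Aldh3a2 (0.19 ± 0.046). In amino acid handling (66 genes) Glul, the cysteine dioxygenase Cdo1 (0.45 ± 0.078), Cth (0.27 ± 0.060), which makes cysteine, and the taurine transporter Slc6a6 (0.22 ± 0.060) rose, and Slc7a10 fell. In the iron and heme list (43 genes) Cd163 and the iron exporter Slc40a1 (0.23 ± 0.052) rose. Of all 364 solute carriers 12 rose (3.3%, against 1.36% of all genes) and 2 fell (0.549%, against 0.843%). Insulin signalling had the receptor Igf1r (0.23 ± 0.054), Igfbp3 (0.29 ± 0.077) and Sgk1 higher and the adaptor Irs1 (-0.33 ± 0.073) lower among 45 genes.

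Stress responses were called in part. Of 39 immediate-early genes, which cells switch on within minutes of a stimulus, 7 rose (17.9%) and 0 fell by limma, with 11 higher and 1 lower at an unadjusted p under 0.05. Those that rose were Dusp1, the matricellular genes Ccn2 (0.30 ± 0.076) and Ccn1 (0.23 ± 0.062), Gadd45b (0.24 ± 0.064), Sik1 (0.19 ± 0.052), Klf6 (0.17 ± 0.041) and Btg2 (0.14 ± 0.038). Among the 32 not called were Fos (0.006), Jun (0.065), Egr1 (-0.12), Nr4a1 (-0.14) and Myc (-0.19). Over the whole list 28 estimates were positive and 11 negative. Of 58 antioxidant and NRF2 genes, Gpx3 rose (0.50 ± 0.13, adjusted p = 0.016), and 0 fell by limma, with 7 higher and 3 lower at an unadjusted p under 0.05. Gpx3 alone is 1.72% of the list, where 1.36% of all genes rose. The interferon list of 60 genes had Usp18 higher (0.29 ± 0.071) and Iigp1 lower (-0.50 ± 0.13). Each is 1.67% of the list, where 1.36% of all genes rose and 0.843% fell. In the acute-phase list of 57, Slfn4 (0.42 ± 0.086), the interleukin 6 receptor Il6ra (0.32 ± 0.066) and Stat3 (0.16 ± 0.040) rose. Limma called 0 of 64 oxidative phosphorylation genes (0 higher and 0 lower at an unadjusted p under 0.05), 0 of 46 ribosomal protein genes (0 and 2) and 0 of 59 ribosome biogenesis genes (0 and 7).

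Among the called genes that ranked 13 to 24 by size in each direction, several belonged to none of the groups above. Peg3, a zinc finger gene expressed from the paternal copy, rose by 0.58 ± 0.10 (adjusted p = 6.8e-05, 39 of 41 arrays), and Ndrg2 by 0.57 ± 0.11 (adjusted p = 0.00061, 38 of 41). Among those that fell were Nckap5 (-0.42 ± 0.093), Plppr5 (-0.41 ± 0.10), the phospholipase Plcb1 (-0.41 ± 0.091), amphiphysin, Amph (-0.40 ± 0.079), Plcxd3 (-0.39 ± 0.074) and the prokineticin receptor Prokr2 (-0.36 ± 0.071). Tmem132c (-0.34 ± 0.056) was among the 5 smallest adjusted p of the genes that fell (5.5e-05). In all, 189 of the 440 called genes were in at least 1 of the 79 lists and 251 in none.

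The size of the change was next compared across the oxygen given after hypoxia. No gene differed among the 4 hypoxia groups by limma, while 416 genes (2.09%) had an unadjusted p under 0.05. The interaction of hypoxia with 100% oxygen also gave 0 calls (419 genes, 2.1%, at an unadjusted p under 0.05). A p that misses the threshold does not show equal responses. Against the shared controls, Vegfc changed by 0.64 ± 0.085, 0.51 ± 0.085, 0.54 ± 0.077 and 0.61 ± 0.080 in H21, H40, H60 and H100, and Wnt2 by -0.61 ± 0.17, -0.52 ± 0.17, -0.50 ± 0.16 and -0.45 ± 0.16. The control groups differed in 1 gene (0.00502%), the cytochrome Cyp3a16, which was higher in N100 than in N21 by 0.53 ± 0.089 (limma adjusted p = 0.0027), and 317 genes (1.59%) had an unadjusted p under 0.05. The call was lost (0 genes) with array quality weights, without the column split, in either part of the columns alone, with a replicate block and without the dimmest 40% of genes.

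Finally the lung change was tested against that of the same exposure in 58 brain and 56 eye arrays, in 1 limma fit with the column part as a block. The design text has 62 mice for the 177 arrays, so mice were shared between tissues. The labels do not link their arrays, and the fit took all arrays as independent. It differed from the brain change in 116 genes (0.582%) and from the eye change in 95 (0.477%). Of the 440 genes called in lung, 98 differed from brain, 78 from eye and 54 from both. The 440 were chosen by their lung change, and the same lung arrays enter both differences. That choice by itself raises these counts above the shares over all genes. The lung changes below carry the ± of the fit to lung alone. The ± of the brain and eye changes and of the differences comes from the joint fit. The largest called positive differences were shared between these comparisons: Fhl5 changed by 1.39 ± 0.18 in lung, 0.035 ± 0.13 in brain and 0.11 ± 0.13 in eye, Dpep1 by 1.11 ± 0.13, 0.069 ± 0.10 and 0.17 ± 0.10, and Mmp8 by 0.90 ± 0.15, -0.037 ± 0.11 and 0.062 ± 0.11. Fmo2 and Adamtsl2 followed against brain, and Ntrk2 and Wfdc1 against eye.

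On the other side, Hmox1, heme oxygenase, rose in brain by 0.72 ± 0.10 and changed by -0.059 ± 0.066 in lung (difference -0.78 ± 0.14, adjusted p = 0.00014). The metallothionein Mt2 rose in brain by 1.01 ± 0.13 and in eye by 0.71 ± 0.14, and changed by 0.27 ± 0.11 in lung (adjusted p = 0.32). Its lung change was lower than the brain change by limma (adjusted p = 0.027), as were those of Ctla2a (adjusted p = 0.021) and the chemokine Cxcl10 (adjusted p = 0.027). Against eye the lowest called were the mesenchymal and guidance genes Slitrk6, Rspo2, Adh1, Adam12 and Unc5c, with differences of -0.98, -0.69, -0.59, -0.58 and -0.57. Of the 60 glucocorticoid-induced genes 10 differed between lung and brain and 9 between lung and eye. In all, 19 genes were called in brain and 45 in eye. Genes called in lung and in brain with the same sign were 4 (Anxa2, Ms4a4a, Serpina3n and Stat3), and 4 were called in lung and in eye with the same sign.

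**Figure D4:**
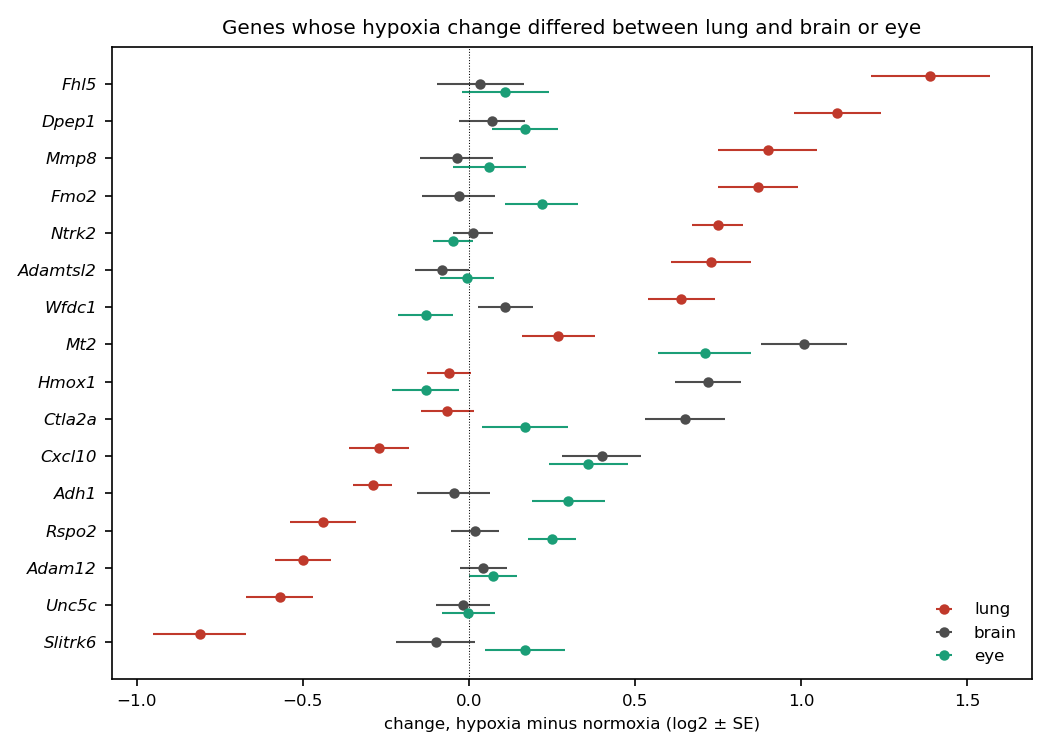
Change after hypoxia (hypoxia minus normoxia, log2, ± standard error) in lung, brain and eye for the 16 genes named for a tissue difference, ordered by the lung change. Standard errors are from the fit to lung alone for lung and from the joint fit for brain and eye. Fhl5 reached 1.39 in lung against 0.035 in brain and 0.11 in eye, while Hmox1 reached 0.72 in brain against -0.059 in lung.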

How the data were processed

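RNA of whole lung was measured on mouse gene arrays. The authors deposited log2 values, made with RMA per the submitters' processing notes, which give no version. The labels' protocols describe a Ficoll gradient and a kit made for blood, with 10 ng of RNA as input. Solid pieces of 62 mice are what the design text describes. Values ran from 1.50 to 14.5, and the number of arrays limits the precision. Of 34760 probe sets, 21640 had 1 gene symbol, 1321 several and 11799 none. The probe set with the highest lung mean stood for each of 19937 genes (954 had several). RMA values of different genes are not comparable as levels.

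Groups came from the sample titles, and the array of brain profile was left out. With limma 3.58.1 in R 4.3.3, group means and the column part were fitted with lmFit and eBayes, and a gene was called at a Benjamini-Hochberg adjusted p under 0.05 over all genes. P-values measure the spread between these arrays. Named were the called genes ranked 13 to 24 by size and the 5 smallest adjusted p in each direction, up to 6 called members per direction of each described list (all where the list is given in full), and up to 5 called genes per direction for each tissue difference. Values by array were given for up to 3 called members of a list. Uncalled genes named were the 2 largest estimates of lists without calls. Mcm2, Mcm3, Fkbp5, Zbtb16, Per1, Fos, Jun, Egr1, Nr4a1, Myc, Tcf21, Plin2 and Npnt were also named, chosen after their values were seen. The members and lists were chosen with earlier results of these data known. On simulated data for this comparison (19937 genes), 64, 98 and 100 of 100 genes changed by 0.25, 0.5 and 1 were called, with 9 false calls. Promoter windows came from RefSeq (GRCm38.p6) and were matched by gene ID. Alternatives were other blocks, weights, filters, normalization, single arrays left out and a replicate block.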

Additional observations from a re-analysis of the deposited data

Results flagged for a closer look

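In groups of 9 or 10 lung arrays, single values stood apart from the rest by Dixon's criterion in 16 of 120 combinations of gene and group, over the 30 genes given by array. Chance flags about 1 in 20. The values were not adjusted for the column part, and how far that part bears on the flags was not tested. N21 replicate 2 was the array in 7 of these. It was low for Wnt2 (7.24, the other 8 arrays 8.41 to 9.42), Fgf10 (6.84, others 7.41 to 7.89) and Rspo2 (6.53, others 7.48 to 8.10). The same array was high for Scnn1a (9.94, others 8.73 to 9.29), Glul (11.82, others 10.77 to 11.13), Adm (8.18, others 7.16 to 7.65) and Hif3a (7.43, others 5.44 to 6.09). These deviations have the sign of the hypoxia change.

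In H40 replicate 2 the deviations were against that sign, with Fgf10 at 7.73 (others 6.88 to 7.28) and Adam12 at 8.24 (others 7.27 to 7.68). In H21 replicate 1, Fgf10 (6.04, others 6.94 to 7.63), Adam12 (6.47, others 7.28 to 7.60) and Cd163 (5.41, others 6.20 to 6.71) were low. N100 replicate 10 was low for Ntrk2 (5.68, others 6.03 to 6.43) and Ptprd (9.21, others 9.92 to 10.50). Single high values were those of Sgk1 in N100 replicate 9 (9.85, others 8.86 to 9.32) and Adm in N100 replicate 7 (8.50, others 7.19 to 7.81). Replicates 9 and 10 are the N100 arrays of the later part of the columns.

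The lung change differed from the change in another tissue, by limma's test of the difference, in these named genes. Lung minus brain was 1.35 for Fhl5, 1.04 for Dpep1, 0.93 for Mmp8, 0.90 for Fmo2 and 0.81 for Adamtsl2. It was -0.78 for Hmox1, -0.74 for Mt2, -0.71 for Ctla2a, -0.71 for Slitrk6 and -0.68 for Cxcl10. Lung minus eye was 1.27 for Fhl5, 0.94 for Dpep1, 0.83 for Mmp8, 0.79 for Ntrk2 and 0.77 for Wfdc1. It was -0.98 for Slitrk6, -0.69 for Rspo2, -0.59 for Adh1, -0.58 for Adam12 and -0.57 for Unc5c. Lung, brain and eye arrays were not tied to the same mouse in the labels.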

How the results depend on the processing

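The 440 calls (272 higher, 168 lower) became 1113 (738 and 375) with array quality weights, 138 (83 and 55) with arrays of another tissue included, 38 (29 and 9) in the later columns alone and 23 (21 and 2) in the first columns alone. The last 2 settings use fewer arrays. For the others the cause was not tested. With single arrays left out, the calls ran from 368 to 583, those higher from 238 to 391 and those lower from 130 to 221. The lung minus brain calls (116) became 365, 34, 3 and 13 under the same 4 settings in that order, and the lung minus eye calls (95) became 419, 28, 2 and 13, and 143 without the low-correlation arrays. The 1 gene called between N100 and N21 became 0 with quality weights, without the column split, in either part of the columns alone, with a replicate block and without the dimmest 40% of genes. The lung change of Ctla2a, which was not called, turned to 0.045 in the later columns alone, and the cause was not tested. Of the 440 genes (410 without the dimmest genes) 0 changed sign under the settings named here other than single arrays left out, where signs were not counted. Of them 331 were still called without the column split, 429 after quantile normalization, 428 with sex as a covariate and 423 without the low-correlation arrays. Sex was inferred from the arrays, by Xist against Y-linked genes. Whether replicate numbers pair some of the arrays is not known. Deviations of same-numbered arrays correlated with a median r of -0.000191 over 139 pairs, from -0.491 to 0.49. For differently numbered arrays the median r was -0.00933. With a replicate block 443 genes were called (281 higher, 162 lower), 406 of them among the 440. Background signal was not among the values used here, and the number of arrays limits the precision.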

Other observations

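Imprinted genes, which are expressed from 1 parental copy, were listed after values had been seen, so they get no test as a group. The lists above were written with earlier results known and were not tested as groups either. Of 42 measured in lung, 3 rose: Peg3 (0.58 ± 0.10), Zim1 (0.48 ± 0.13) and Cdkn1c (0.26 ± 0.063). The 4 that fell were Peg10 (-0.30 ± 0.059), Ppp1r9a (-0.26 ± 0.071), Kcnq1 (-0.17 ± 0.049) and Ndn (-0.16 ± 0.046). The median of the list was 0.0008. The GIMAP family, small GTPases of lymphocytes and endothelium, had Gimap6 (-0.22 ± 0.057) and Gimap4 (-0.20 ± 0.050) lower among 8 genes, with a median of -0.10.

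Further called genes lay in lists not described above. Gata3, a transcription factor of innate lymphocytes and of other cells, rose by 0.29 ± 0.053 and was the called gene among 22 of NK cells and innate lymphocytes. In 23 dendritic cell genes Fscn1, which bundles actin in mature dendritic cells, was called and fell by 0.30 ± 0.061. Among DNA repair and p53 genes, 57 in all, Gadd45g (0.30 ± 0.063) and Ddb1 (0.13 ± 0.033) were among 4 that rose, and Apex1 (-0.24 ± 0.054), a repair endonuclease, and Plk2 (-0.28 ± 0.073) fell. Of 73 proteoglycan genes 4 rose and 2 fell: the chondroitin sulfotransferases Chst3 (0.33 ± 0.059) and Chst11 (0.18 ± 0.042) rose, and the heparan sulfate enzymes Ext1 (-0.19 ± 0.050) and Hs6st3 (-0.22 ± 0.060) fell.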
